A study of Homo sapiens with 12 samples.

Results

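DDX1 and NBAS are the protein-coding genes nearest to MYCN on its short-arm side in chromosome band 2p24. They were chosen by name, as the rows of the gene count files with these symbols, and make up 2 of 19923 rows. MYCN was read beside them as the reference, together with the 32 rows within 5 Mb of it. Poly(A) RNA was sequenced from SK-N-BE2 and NGP, human neuroblastoma lines labelled as wild type in genotype and as MYCN-amplified. Cells of each line received STM2457, an inhibitor of the RNA methyltransferase METTL3, or DMSO, its solvent control, for 6 days. The STM2457 dose was 12 µM for SK-N-BE2 and 1 µM for NGP. Each of the 4 groups had 3 replicate libraries, so the genotype and amplification were shared by treated and control cells and each line was 1 established line.

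MYCN encodes a transcription factor whose amplification marks high-risk neuroblastoma. The amplified DNA segment often carries neighbouring genes with it, DDX1 most often and NBAS less often, and genes on the segment tend to be highly transcribed. DDX1 is a DEAD-box RNA helicase that works with the tRNA ligase complex, and NBAS is a subunit of a tether for vesicles returning from the Golgi to the endoplasmic reticulum and has been tied to nonsense-mediated RNA decay. METTL3 places N6-methyladenosine on RNA at short motifs, of which GGACT is a preferred one. DNA copy number was not measured in these libraries, so the values below are RNA levels only.

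The libraries held 47242379 to 58159937 counted reads. Labels do not say whether replicates were separate cultures, so p-values measure the spread between these libraries, which may be technical. The 2 lines carried different run names in the file headers and different doses, so run, dose and line cannot be told apart between lines. In NGP the biological coefficient of variation was 0.155 with all libraries and 0.0944 without DMSO replicate 1, against 0.107 in SK-N-BE2. No other library was left out for this value. All 7 adrenergic neuroblastoma markers had reads in each group, with summed levels of 1631 to 4395 CPM (counts scaled to a common library total) over the DMSO libraries, although TH was at 0.512 CPM in NGP against 234 CPM in SK-N-BE2. Their summed level in SK-N-BE2 was 3277 to 4395 CPM with DMSO and 2688 to 3004 CPM with STM2457. There 4 of 7 were called, 1 higher and 3 lower (57.1%, against 54.7% of all tested genes). CHGA, the largest part of the sum, had means of 2039 and 1261 CPM, while ISL1 went from 43.0 to 55.8 CPM. In NGP the summed level was 1631 to 2212 CPM with DMSO and 1828 to 2419.7 CPM with STM2457. There 1 of 7 was called, as lower (14.3%, against 41.7% of all tested genes). PTPRC, the marker of blood cells, stayed at or under 1.29 CPM, the summed endothelial markers at or under 9.92 CPM, the epithelial marker EPCAM at or under 2.45 CPM and the Schwann cell marker SOX10 at or under 0.153 CPM. The summed level of 3 fibroblast markers (PDGFRA, DCN and LUM) was 61.2 to 69.4 CPM with DMSO and 129 to 142 CPM with STM2457 in SK-N-BE2, and 126 to 147 CPM and 194 to 232 CPM in NGP. With DMSO, the NGP sum was mostly PDGFRA (mean 132 CPM), with DCN at 0.158 CPM. The SK-N-BE2 sum was mostly DCN (mean 44.6 CPM), with PDGFRA at 1.20 CPM. All 3 passed the test as higher in both lines, where 26.9% (SK-N-BE2) and 19.4% (NGP) of all tested genes were called higher. The part of the adrenergic and fibroblast markers in the results below was not tested. In such bulk samples, fewer cells of a type and less RNA per cell cannot be told apart.

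In the GRCh38 coordinates of the files, DDX1 lies on chromosome 2 from 15591178 to 15631111 on the plus strand, with 3833 bases of exon, and its gap to MYCN is 309 kb. NBAS lies farther out, from 15166914 to 15561334 on the minus strand, with 8947 bases of exon and a gap of 379 kb. MYCN itself runs from 15940550 to 15947007 on the plus strand, with 2616 bases of exon. The exons of DDX1 and NBAS shared no base with another gene in a reference annotation that, unlike that of the files, includes non-coding genes. MYCN shared 3.75% of its exon length with MYCNOS on the other strand, and since the reads were counted without strand the reads in that stretch cannot be told apart.

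DDX1 differed from NBAS and MYCN in how often GGACT occurs in its transcript. GGACT was searched on the sense strand of the GENCODE 44 canonical transcripts, where the RNA has U for T and copies of the motif cannot overlap each other. It occurred 8 times in the 7278 bases of NBAS, 3 times in the 2613 bases of MYCN and 0 times in the 2484 bases of DDX1. All 11 of these matches lay in coding sequence. The density was 1.10 per kb in NBAS and 1.15 per kb in MYCN, against a median of 0.925 per kb over 20046 transcripts. A match was present in 87.8% of all transcripts, and 2.97% of transcripts at least as long as that of DDX1 had none. DDX1 held 2 copies of GGACA and 2 of GGACC, against 9 and 5 in NBAS and 5 and 3 in MYCN. The first and last matches of NBAS and all matches of MYCN are shown from the reference transcripts, 5′ to 3′, with the motif in capitals, because DDX1 has no such match. The NBAS matches lie in exon 4 (chr2:15554109-15554113) and exon 52 (chr2:15167105-15167109) of 52, both on the minus strand. The MYCN matches lie in exon 2 (chr2:15942365-15942369 and chr2:15942403-15942407) and exon 3 (chr2:15946087-15946091) of 3 on the plus strand.
NBAS exon 4: tccctgatGGACTggttcgct
NBAS exon 52: cgtgagggGGACTcaccaggc
MYCN exon 2, first match: gcctggggGGACTgggtggcc
MYCN exon 2, second match: atcctccaGGACTgcatgtgg
MYCN exon 3: acacgctcGGACTtgctagac
Methylation at these positions was not measured here.

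DDX1 was abundant throughout. Its level in SK-N-BE2 was 339, 326 and 274 CPM in the 3 DMSO libraries and 317, 327 and 318 CPM with STM2457. In NGP it was 370.0, 332 and 319 CPM with DMSO and 364, 342 and 381 CPM with STM2457. The group means were 313 ± 34.5, 320.3 ± 5.42, 340.3 ± 26.6 and 363 ± 19.4 CPM in the same order (SD, n = 3 each). Ordered by mean, the groups ran from NGP with STM2457 through NGP with DMSO and SK-N-BE2 with STM2457 to SK-N-BE2 with DMSO, and every neighbouring pair in that order overlapped. The NGP libraries with STM2457, from 342 CPM up, lay above all SK-N-BE2 libraries, which reached 339 CPM.

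NBAS separated the lines. In SK-N-BE2 its level was 86.9, 82.2 and 72.3 CPM with DMSO and 81.9, 84.5 and 74.9 CPM with STM2457. In NGP it was 100.4, 121 and 118 CPM with DMSO and 97.1, 98.8 and 107 CPM with STM2457. The lowest NGP library, at 97.1 CPM, was above the highest SK-N-BE2 library, at 86.9 CPM, while the treatment groups overlapped within each line. The means were 80.5 ± 7.42 and 80.4 ± 4.95 CPM in SK-N-BE2 and 113 ± 11.2 and 101 ± 5.52 CPM in NGP, with DMSO and with STM2457 (SD, n = 3 each). How many genes keep the libraries of the lines apart, as NBAS did, was not counted. Of all tested genes, 71.1% were called between the lines with DMSO.

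MYCN took 0.376% to 0.473% of all counted reads of a library. Its level in SK-N-BE2 was 4406, 4112 and 4784 CPM with DMSO and 4242, 4292 and 4260.1 CPM with STM2457. In NGP it was 3826, 3785 and 4298 CPM with DMSO and 3838, 4500.5 and 3789.9 CPM with STM2457. All groups that stood next to each other in mean overlapped, so the order of the reference gene over the groups lay within the spread of libraries.

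**Figure D1:**
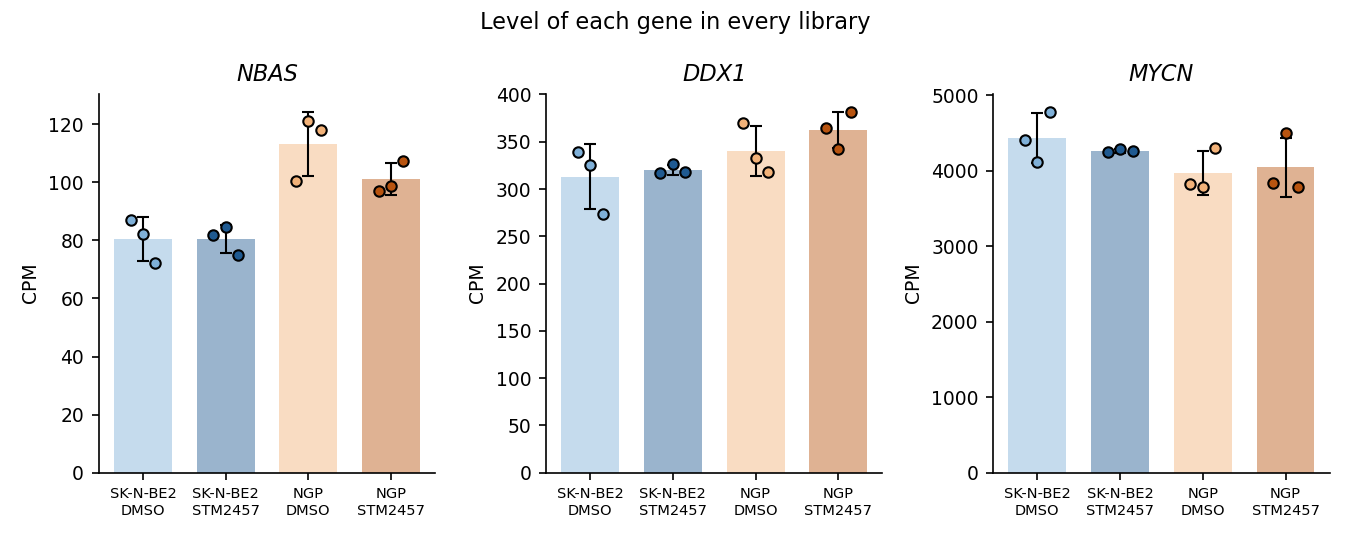
CPM of NBAS, DDX1 and MYCN (vertical axes start at 0) in the 4 groups. Points are single libraries, bars are group means and whiskers are SD (n = 3). All 6 NGP libraries lie above all 6 SK-N-BE2 libraries for NBAS, from 97.1 CPM against at most 86.9 CPM. The 4 groups of MYCN overlap, and for DDX1 the NGP libraries with STM2457 lie above those of SK-N-BE2. The share of all genes that keep the lines apart in this way was not counted.

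Level fell steeply from MYCN to DDX1 and NBAS, with or without scaling by exon length. With DMSO, MYCN stood at 1695 CPM per kb of exon in SK-N-BE2 and 1517 CPM per kb in NGP, rank 16 and rank 10 among 14731 genes tested. DDX1 stood at 81.6 and 88.8 CPM per kb, rank 374 and 336, which put 97.5% and 97.7% of genes below it. NBAS stood at 8.99 and 12.6 CPM per kb, rank 4687 and 3647, with 68.2% and 75.2% of genes below it. The median gene was at 4.33 and 4.28 CPM per kb. On this scale DDX1 was far above the middle of the transcriptome in both lines, and NBAS lay in its upper part.

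The ratio of MYCN to DDX1 per kb was 18.5 to 25.6 in the SK-N-BE2 libraries with DMSO and 15.2 to 19.8 in the NGP libraries with DMSO, so the lines overlapped. Under STM2457 it was 19.26 to 19.7 in SK-N-BE2 and 14.6 to 19.25 in NGP, ranges that came close without overlapping. The ratio of MYCN to NBAS per kb was 171 to 226 in SK-N-BE2 and 107 to 130.4 in NGP with DMSO, with no overlap. Under STM2457 the ratio of MYCN to NBAS was 174 to 194 in SK-N-BE2 and 121 to 156 in NGP. MYCN thus exceeded each neighbour by more than 10 times in every library, and the ratio to NBAS kept apart the lines under both treatments.

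**Figure D2:**
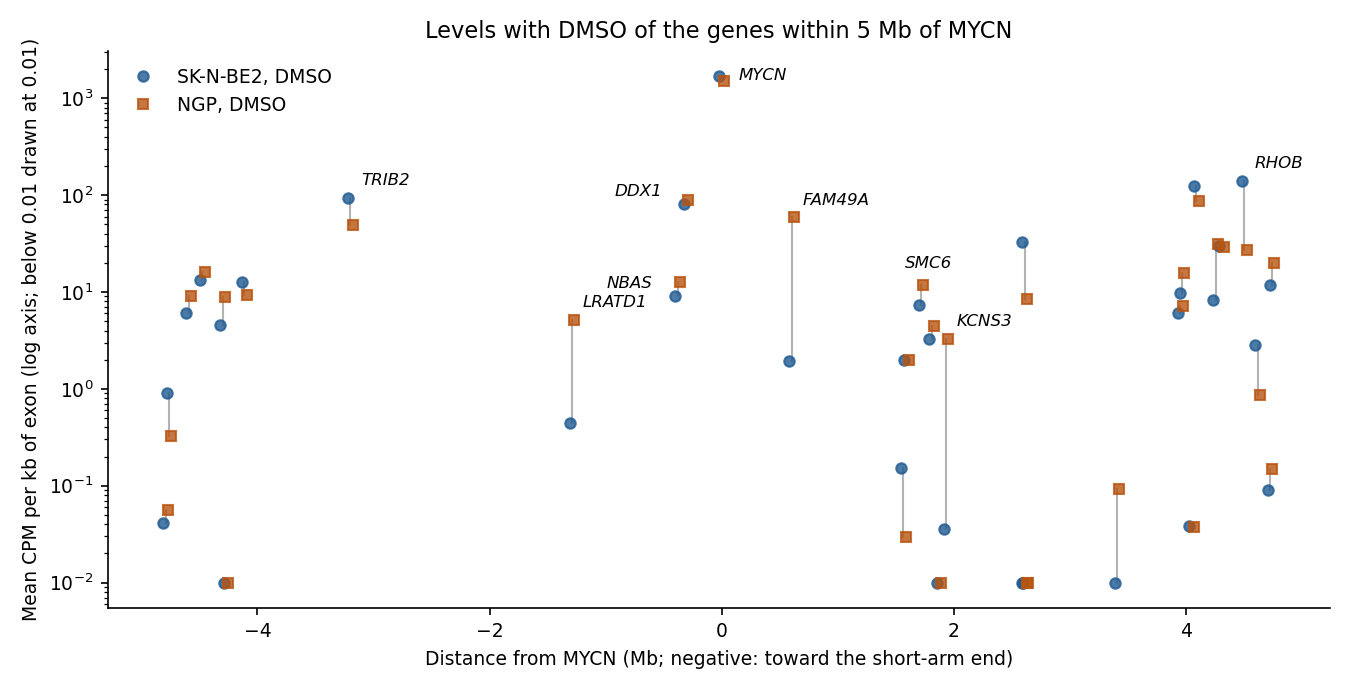
Mean CPM per kb of exon with DMSO (log axis, values under 0.01 drawn at 0.01) against distance from MYCN in Mb for the genes within 5 Mb, negative values lying toward the short-arm end. Circles are SK-N-BE2 and squares NGP, each pair joined by a line. MYCN stands above every other gene shown, DDX1 lies at 81.6 and 88.8, and FAM49A, LRATD1 and KCNS3 show long joins.

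Among the 39 rows named DDX and a number, DDX1 held rank 2 or 3 in every group. In SK-N-BE2 with DMSO it was in second place at 81.6 CPM per kb, between DDX5 at 124 CPM per kb and DDX17 at 76.4 CPM per kb. In NGP with DMSO it was in the third place, behind DDX5 at 126 and DDX21 at 101 CPM per kb and ahead of DDX17 at 56.9 CPM per kb. DDX5 and DDX17 are related helicases that serve in transcription and splicing, and DDX21 works in the nucleolus. Under STM2457 DDX1 was second in both lines, at 83.6 CPM per kb in SK-N-BE2 and 94.6 CPM per kb in NGP.

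The comparison of the lines with DMSO asked how their levels around MYCN differed. In all, 71.1% of the 14731 genes tested differed between the lines at an adjusted p under 0.05 by edgeR's quasi-likelihood test, 35.7% higher and 35.4% lower in SK-N-BE2, so a difference between these lines is common. Of the 2 members, NBAS was called and DDX1 was not. NBAS was lower in SK-N-BE2 by a log2 difference of -0.49 (SE 0.10, 95% interval -0.70 to -0.28, edgeR adjusted p = 0.000466), which makes NGP 1.41-fold higher, and all 3 SK-N-BE2 libraries lay below all 3 NGP libraries. As many as 62.9% of tested genes differed by at least as much. DDX1 differed by -0.12 (SE 0.09, 95% interval -0.32 to 0.08, edgeR adjusted p = 0.262) and MYCN by 0.16 (SE 0.10, 95% interval -0.06 to 0.38, edgeR adjusted p = 0.174). These intervals bound a difference of either gene without showing that the lines are alike.

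On the other side of MYCN the picture was different. FAM49A, now named CYRIA, a regulator of the actin cytoskeleton that binds Rac1, is the nearest gene there, 602 kb away. Its level was 9.58, 9.88 and 11.9 CPM in the SK-N-BE2 libraries with DMSO, from lowest to highest, and 284, 340.7 and 346 CPM in those of NGP. Every NGP library was far above every SK-N-BE2 library. The log2 difference was -4.96 (SE 0.14, 95% interval -5.26 to -4.65, edgeR adjusted p = 1.29e-12), and NGP was 31.0-fold higher. Of all tested genes, 7.24% differed by at least as much. Per kb of exon FAM49A stood at 59.4 CPM in NGP, near DDX1 at 88.8 CPM, and at 1.92 CPM in SK-N-BE2, far under DDX1 at 81.6 CPM.

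Beyond NBAS, the next gene on the short-arm side was LRATD1, 1.29 Mb from MYCN. It measured 3.27, 3.71 and 4.19 CPM in SK-N-BE2 with DMSO and 39.7, 44.9 and 45.1 CPM in NGP, again without overlap. NGP was 11.6-fold higher, at a log2 difference of -3.54 with an SE of 0.13 (edgeR adjusted p = 1.39e-11). Of all tested genes, 11.1% differed by at least as much. DDX1, NBAS and MYCN thus lay between 2 genes whose levels differed between the lines by more than 10 times, while DDX1 and NBAS differed by 1.41-fold at most. Large differences were not particular to the region. A log2 difference beyond 2 in either direction was found in 20% of tested genes over 1 to 5 Mb away, against 20.3% of all tested genes.

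Farther along the long-arm side, neighbours in the map did not move as a block. RAD51AP2 was barely counted, with 91 reads in SK-N-BE2 and 17 in NGP over the 3 DMSO libraries. VSNL1, a neuronal calcium sensor, was at 7.51 CPM in SK-N-BE2 and 7.49 CPM in NGP, a log2 difference of 0.00 (SE 0.17, edgeR adjusted p = 0.989). SMC6, a subunit of a DNA repair complex, was at 71.2 and 116 CPM, a difference of -0.71 (edgeR adjusted p = 3.06e-05). GEN1, a resolvase of DNA junctions, was lower by -0.44 (edgeR adjusted p = 0.00337). KCNS3, a potassium channel subunit, had 18 reads in SK-N-BE2 and 1564 in NGP, a log2 difference of -6.47 (SE 0.48, edgeR adjusted p = 2.12e-08). Within 2 Mb of MYCN, 7 of 9 tested genes were called, against 71.1% of all tested genes. Of these, 6 were lower in SK-N-BE2 and 1 was higher, namely RAD51AP2 on its few reads. Over all tested genes, 35.4% were lower and 35.7% higher.

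Over the whole 5 Mb on either side, 22 of 28 tested genes were called, or 78.6%, against 71.1% of all genes. Of these, 8 were higher in SK-N-BE2 and 14 lower. RHOB, a small GTPase, lay farthest toward SK-N-BE2 among the called genes within 5 Mb, at a log2 difference of 2.40, and RDH14, a retinol dehydrogenase that shares 16.6% of its exon length with a readthrough gene, differed by 1.94. TRIB2, a pseudokinase, was higher in SK-N-BE2 by 0.92. The median log2 difference was -0.34 over the 28 genes and 0.00 over all genes. By distance the median was -0.49 for the 3 genes within 1 Mb, -0.26 for 25 genes from 1 to 5 Mb, -0.13 for 44 genes from 5 to 10 Mb and 0.02 for the 936 genes of the chromosome beyond that. A bin of 3 genes gives a median that rests on NBAS alone, and the bins were described without a test.

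**Figure D3:**
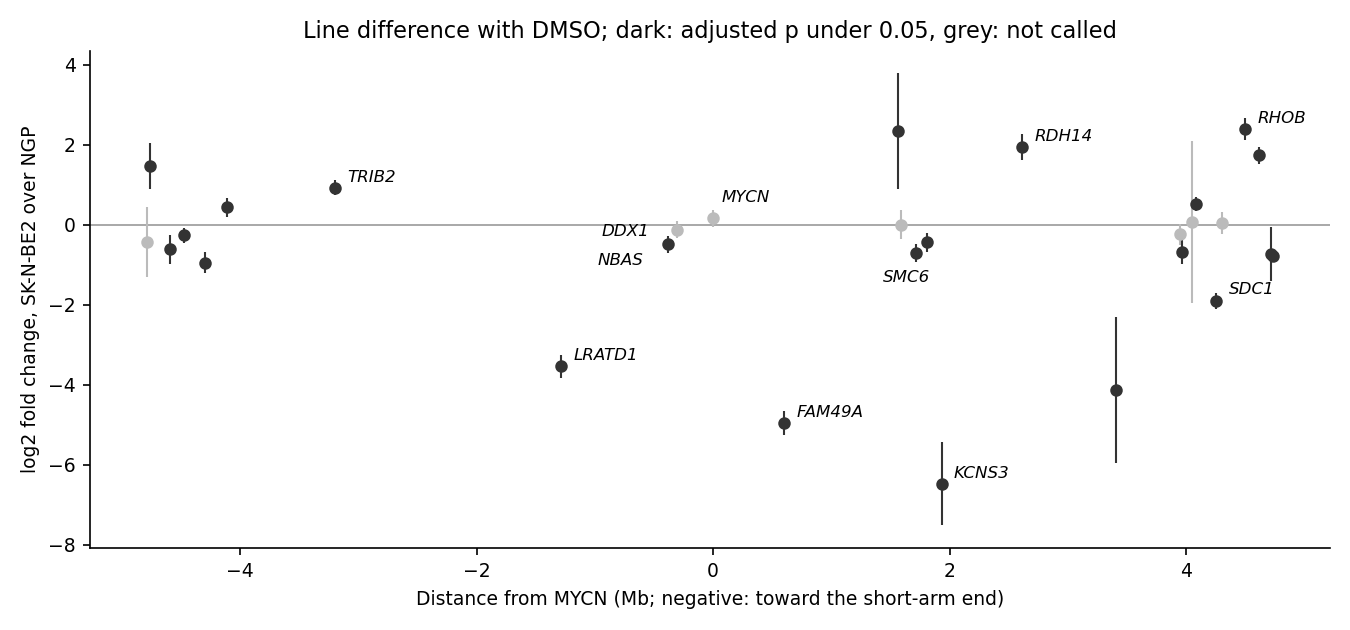
Log2 difference with DMSO, SK-N-BE2 over NGP, with 95% intervals, against distance from MYCN in Mb for the tested genes. Dark points have an adjusted p under 0.05 and grey points do not. DDX1 and MYCN sit near 0 and NBAS at -0.49, while LRATD1 at -3.54 and FAM49A at -4.96 flank them.

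STM2457 left both members without a called change in either line. In SK-N-BE2, where 54.7% of 14013 tested genes were called (26.9% higher, 27.8% lower), DDX1 gave a log2 fold change of -0.00 (SE 0.09, 95% interval -0.20 to 0.20, edgeR adjusted p = 0.976). NBAS gave -0.04 (SE 0.09, 95% interval -0.23 to 0.15, edgeR adjusted p = 0.740). In NGP, where 41.7% of 13610 tested genes were called (19.4% higher, 22.2% lower), DDX1 gave 0.07 (SE 0.10, 95% interval -0.16 to 0.29, edgeR adjusted p = 0.618). NBAS gave -0.19 (SE 0.11, 95% interval -0.43 to 0.06, edgeR adjusted p = 0.190). Neither member had an unadjusted p under 0.05 in either line, and DESeq2 called 0 of the 2 as well. Without the NGP DMSO replicate 1 library, which was the lowest of its group for NBAS, NBAS was called at -0.27 (edgeR adjusted p = 0.00634), so the outcome in NGP rests on that library.

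The responses of the lines were also compared with each other, at their different doses. Here 30.9% of 14731 genes were called, and again neither member was. The difference, SK-N-BE2 minus NGP, was -0.06 for DDX1 (SE 0.13, 95% interval -0.34 to 0.23, edgeR adjusted p = 0.789) and 0.16 for NBAS (SE 0.14, 95% interval -0.14 to 0.46, edgeR adjusted p = 0.411). For MYCN, SK-N-BE2 gave a response of -0.09 with an SE of 0.10 (edgeR adjusted p = 0.453). NGP gave 0.00 with an SE of 0.11 (edgeR adjusted p = 0.995). With all libraries in the fits, neither DDX1, with 0 copies of GGACT in its transcript, nor NBAS, with 8, had a called response. Whether the number of copies bears on the response was not tested.

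Other genes of the region did respond. Of the tested genes within 5 Mb, 12 of 26 (46.2%) were called in SK-N-BE2, 9 higher and 3 lower, and 10 of 27 (37.0%) in NGP, 8 higher and 2 lower. Both shares lay near those over all genes. The NGP count was 5 without STM2457 replicate 1, 6 without STM2457 replicate 3 and 17 without DMSO replicate 1. The median log2 fold change was 0.11 in SK-N-BE2, against -0.02 over all genes, and 0.07 in NGP, against -0.03. GEN1 rose in both lines, from 38.4 ± 1.94 to 64.5 ± 6.28 CPM in SK-N-BE2 (SD, n = 3), a log2 change of 0.71 (edgeR adjusted p = 2.93e-05), and by 0.87 in NGP (edgeR adjusted p = 0.00125). VSNL1 rose by 0.73 in SK-N-BE2 (edgeR adjusted p = 0.000724) and by 0.81 in NGP (edgeR adjusted p = 0.00676). LPIN1, a phosphatidate phosphatase, rose by 0.38 and 0.42, the latter call being lost without any single NGP STM2457 library.

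FAM49A and LRATD1, which flank MYCN and the members, were each called in 1 line. FAM49A fell in SK-N-BE2, from 10.4 ± 1.24 to 6.19 ± 0.154 CPM (SD, n = 3), a log2 change of -0.79 (SE 0.13, edgeR adjusted p = 0.000188). In NGP its change was -0.31 (SE 0.14, edgeR adjusted p = 0.101), and the difference between the lines, -0.47, was not called (edgeR adjusted p = 0.0586). LRATD1 fell in NGP, from 43.2 ± 3.08 to 25.3 ± 2.63 CPM (SD, n = 3), a log2 change of -0.80 with an SE of 0.12 (edgeR adjusted p = 0.00108). In SK-N-BE2 its change was 0.17 (edgeR adjusted p = 0.391), and here the difference of 0.99 was called (edgeR adjusted p = 0.000736). RAD51AP2 passed the test in NGP at 2.59 (edgeR adjusted p = 0.0121) on 17 reads with DMSO and 100 with STM2457, and the call was lost without NGP DMSO replicate 3 (adjusted p = 0.0510) or NGP STM2457 replicate 1 (adjusted p = 0.0542).

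**Figure D4:**
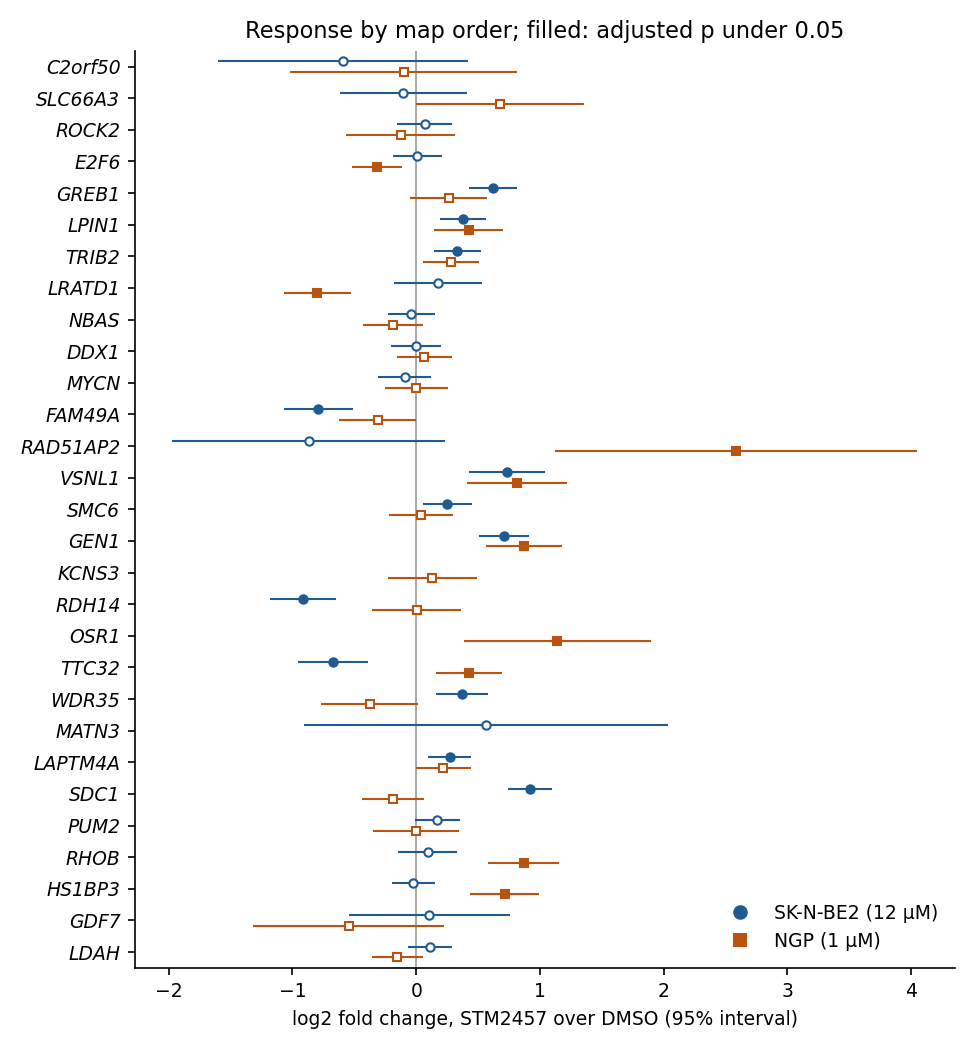
Log2 fold change of STM2457 over DMSO with 95% intervals for MYCN and the tested genes within 5 Mb, in map order from the short-arm end downward. Circles are SK-N-BE2 at 12 µM and squares NGP at 1 µM, filled where the adjusted p is under 0.05. NBAS, DDX1 and MYCN have open symbols in both lines, while GEN1 and VSNL1 are filled to the right of 0 in both.

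The partners of DDX1 in the tRNA ligase complex, which joins the exons of spliced tRNAs, were read from a list of 5 genes. RTCB, the ligase itself, rose in SK-N-BE2 from 71.0 ± 10.3 to 106 ± 4.50 CPM (SD, n = 3), a log2 change of 0.54 (SE 0.10, edgeR adjusted p = 0.000591). RTRAF fell there, with a log2 change of -0.28 (edgeR adjusted p = 0.0201), a call that was lost without DMSO replicate 2 or any 1 of the STM2457 replicates (edgeR adjusted p up to 0.0784), and in the fit of all 12 libraries (0.116). FAM98B, C2orf49 and ZBTB8OS were not called, at -0.02, 0.14 and -0.02. The 2 of 5 called in SK-N-BE2 stand against 54.7% of all genes. In NGP, where 41.7% of all genes were called, 0 of 5 were called by edgeR, 0 had an unadjusted p under 0.05 and DESeq2 called 0, with RTCB at 0.07. The list's median was -0.02 in SK-N-BE2 and 0.07 in NGP. With DMSO, 3 of 5 were called between the lines (60%), against 71.1% of all tested genes. RTCB, FAM98B and C2orf49 were lower in SK-N-BE2, at -0.78, -0.56 and -0.47. RTRAF at 0.06 and ZBTB8OS at -0.01 were not called.

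Partners of NBAS were called in both lines. NBAS forms the NRZ tether with RINT1 and ZW10, which docks Golgi-derived vesicles through SNARE proteins of the endoplasmic reticulum. Of the 8 listed partners, 7 were called in SK-N-BE2, 2 higher and 5 lower, against 54.7% of all genes. In NGP 3 of 8 were called (37.5%), all lower, which is near the 41.7% over all genes. The SNAREs BNIP1 and STX18 fell in both lines. BNIP1 went from 14.6 ± 3.07 to 10.1 ± 0.102 CPM in SK-N-BE2 and from 16.6 ± 1.79 to 9.42 ± 0.718 CPM in NGP (SD, n = 3), log2 changes of -0.57 and -0.84. STX18 changed by -0.38 and -0.70. SCFD1, which acts with these SNAREs, went from 63.2 ± 3.97 to 45.5 ± 1.88 CPM in SK-N-BE2 and from 55.6 ± 5.31 to 32.3 ± 1.72 CPM in NGP (SD, n = 3), changes of -0.51 and -0.81.

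Within SK-N-BE2 the SNAREs USE1 and SEC22B fell as well, by 0.86 and 0.29 on the log2 scale. SCFD2 rose there from 35.5 ± 6.82 to 67.4 ± 1.15 CPM (SD, n = 3), a change of 0.89. ZW10 passed the test at 0.28, a call lost without DMSO replicate 3, STM2457 replicate 2 or STM2457 replicate 3, with adjusted p up to 0.0732. RINT1, the other subunit of the tether, was called in neither line, with log2 changes of 0.03 for SK-N-BE2 and 0.07 for NGP. The median over the 8 was -0.34 in SK-N-BE2, against -0.02 over all genes, and -0.20 in NGP, against -0.03. The lists were described by these counts and medians alone.

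As a description, the pattern of each member over the 12 libraries was set against 8357 genes with at least 10 CPM in every group. For DDX1 the highest Pearson r of log2 CPM was with UGP2 (0.912), SMYD5 (0.862) and BRD7 (0.854). For NBAS it was with APPBP2 (0.978), MBTD1 (0.976) and DCP2 (0.973). Between DDX1 and NBAS r was 0.559, which placed NBAS at 1453 in the order for DDX1. With MYCN, r was -0.773 for DDX1, at place 8343 in its order, and -0.594 for NBAS, at place 6359. The points share libraries, lines and runs, so a value can carry a line difference where a gene has one, as NBAS did. Neither DDX1 nor MYCN had a called line difference. In both DMSO groups and in NGP with STM2457, the library highest in MYCN was the lowest in DDX1, but not in SK-N-BE2 with STM2457. What lies behind the r of DDX1 with MYCN was not tested.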

How the data were processed

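The deposited values are read counts per gene for each of 12 libraries. Per the file headers, the authors counted with featureCounts 2.0.5 over protein-coding genes of GENCODE 33 (GRCh38), in paired mode without read-pair counting, without a strand option and without multimapping reads. Even numbers made up 72.1% to 75.4% of counts from 1 to 20, so the mates of a pair appear to have been counted singly and counting error taken from these numbers would be too narrow. The submitters' processing notes list FastQC 0.11.5, Trimmomatic 0.36, HISAT2 2.1.0 and Subread 1.5.3. No spike-in was used here, so levels are relative to each library's total.

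Genes were filtered (filterByExpr, minimum count 10), scaled by TMM and tested with edgeR 4.0.16 in R 4.3.3 by the quasi-likelihood test, with Benjamini-Hochberg adjustment over all genes tested and a threshold of 0.05. Responses were fitted on the 6 libraries of a line. The line difference and the difference of responses came from 1 fit of all 12. CPM use TMM factors of all 12 libraries, so they can differ slightly from a line's fitted fold change. SE is the size of the log2 change over the square root of F, and 95% intervals use the moderated degrees of freedom. Named genes were DDX1, NBAS and MYCN, the 3 nearest genes on each side, genes within 5 Mb with at least 1 CPM in a group (for responses, those called), list members by role, the DEAD-box neighbours in rank and the 3 most like genes. Lists were the tRNA ligase complex, the NRZ tether with its SNAREs, nonsense-mediated decay and cell type markers (adrenergic, blood, endothelium, epithelium, Schwann, fibroblast). Some genes of these lists are not reported here. Members and lists were chosen with earlier results of these data known. Alternatives were other scalings, filters, dispersion and samples fitted, counts halved, DESeq2 1.42.0, a replicate block, a fold minimum, other windows and each replicate left out.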

Additional observations from a re-analysis of the deposited data

Results flagged for a closer look

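For 15 genes of the region or of the partner lists, the STM2457 response differed between the lines by the test of the difference itself (edgeR, adjusted p under 0.05), at different doses. Values are log2 differences, SK-N-BE2 minus NGP. Neither DDX1 nor NBAS was among them. The 9 genes of the region are 32.1% of the 28 tested there, near the 30.9% over all genes, and the lists gave 2 of 8 NBAS partners and 4 of 10 nonsense-mediated decay factors. In the region, the difference was 0.986 for LRATD1, 0.336 for E2F6 (a call lost in 16 of 20 alternatives), -0.728 for HS1BP3, -3.44 for RAD51AP2 (few reads) and -0.903 for RDH14. It was -0.763 for RHOB, 1.12 for SDC1, -1.09 for TTC32 and 0.759 for WDR35. Among NBAS partners it was 0.659 for SCFD2 and -0.558 for SEC22B. Among nonsense-mediated decay factors it was -0.586 for DHX34, 1.05 for SMG5, -0.762 for SMG8 and 0.649 for SMG9.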

How the results depend on the processing

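The lower level of NBAS in SK-N-BE2 with DMSO was called under every alternative run, from -0.55 to -0.39 with 1 library left out and at -0.49 with the replicate block. Same-numbered replicates did not deviate together (r from -0.0737 to 0.0876), and the block left 12, 9, 8 and 21 genes within 5 Mb called, for SK-N-BE2, NGP, the difference of responses and the line difference. The response of DDX1 in SK-N-BE2 lay near 0 and changed sign to 0.0028 (DESeq2 size factors), 0.0022 (replicate block), 0.0028 (DESeq2) and 0.034 (all 12 libraries). That of MYCN in NGP became -0.0017 with no filter and -0.0010 with the block. None of these was called. With 1 library left out, the range was -0.093 to 0.055 for DDX1 in SK-N-BE2, -0.11 to 0.018 for NBAS in SK-N-BE2, -0.27 to -0.14 for NBAS in NGP (called without DMSO replicate 1), -0.056 to 0.060 for MYCN in NGP and -0.15 to 0.0021 for the difference of MYCN responses. The NGP count ran from 5 (without STM2457 replicate 1) to 17 (without DMSO replicate 1), and was 6 without STM2457 replicate 3. A log2 change of at least 1 left 0, 2, 3 and 10 genes, a window of 2 Mb 4, 4, 2 and 7, and one of 10 Mb 37, 32, 21 and 47, by their construction. The libraries held 14321 to 19397 reads of DDX1 and 3783 to 6184 of NBAS, and how much of their spread is counting error was not tested.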

Other observations

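NBAS has been tied to nonsense-mediated decay, and 10 factors of that pathway were read beside it. In SK-N-BE2, 5 of 10 were called with STM2457, 2 higher (SMG9 at 0.46 and SMG5 at 0.34 on the log2 scale) and 3 lower (DHX34 at -0.70, SMG8 at -0.39 and UPF1 at -0.35), a share near the 54.7% over all genes. In NGP, 2 of 10 were called, both lower (SMG5 at -0.70 and UPF3B at -0.47), against 41.7% of all genes. SMG5, an adaptor that recruits decay enzymes, therefore moved in opposite directions in the lines. The list's median log2 change was -0.04 in SK-N-BE2 and -0.18 in NGP, against -0.02 and -0.03 over all genes. NBAS itself was called in neither.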
